A study of Homo sapiens with 6 samples.

Results

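Human chromosome 19 is the most gene-dense human chromosome, and besides its clusters of ZNF genes, which code for zinc-finger proteins, it carries housekeeping, signalling, chromatin and immune genes packed close together. The regions described here are the matrix-attached regions of chromosome 19 whose centre did not lie in the body of a gene with a symbol that starts with ZNF. There were 1144 such regions in the hPSC list, 987 in the shLUC list and 904 in the shHNRNPU list, out of 40106, 39368 and 36277 regions in all. Regions centred in ZNF genes, which were set aside, numbered 157, 125 and 114. Chromosome 18, which is of similar size but poor in genes, served as the reference and held 959, 997 and 950 regions.

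The regions come from MAR-seq, which sequences the DNA that stays with the nuclear matrix once the rest of the chromatin has been cut away and washed out. All 6 samples were H1 cells, an established line of human pluripotent stem cells, in 3 groups with 2 samples each. The hPSC group received no treatment, the shLUC group carried a short hairpin RNA aimed at LUC (taken here as the control for the hairpin), and the shHNRNPU group carried a hairpin aimed at HNRNPU. The labels give neither how the hairpins were introduced nor how far HNRNPU was reduced, and the lists hold no expression value that could check the knockdown or the pluripotent state. Each group had 1 deposited list, so the spread between samples is unknown and no difference below was tested. Intervals are 95% exact intervals (Poisson for counts, Clopper-Pearson for shares) that cover counting error only. Every region was 400 bp wide, read depth is unknown, and a weaker signal at a site cannot be told apart from a site that missed the threshold of a list.

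Matrix or scaffold attachment regions anchor chromatin loops to the nuclear scaffold, a network of proteins and RNA, and they are classically rich in A and T. HNRNPU, also known as scaffold attachment factor A, binds both RNA and such DNA and is one of the best known components of the scaffold. A promoter is the stretch around a transcription start at which the transcription machinery assembles, and promoters of broadly expressed genes are often rich in G, C and the dinucleotide CG (CpG).

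The promoters of 3 genes of chromosome 19 show what the lists held at gene starts, where the clearest contrast between the lists was found. THAP8 codes for a protein with a THAP DNA-binding domain, and its promoter at chr19:36054236-36054535 (minus strand) lay wholly inside a region of each of the 3 lists, with the same coordinates (36054191 to 36054590) in all. DHX34 codes for an RNA helicase, and its promoter at chr19:47349065-47349364 (plus strand) lay inside a region of the hPSC list alone (47348981 to 47349380). ZSCAN18 codes for a zinc-finger protein without a ZNF symbol, and its promoter at chr19:58118355-58118654 (minus strand) lay inside a region of the shLUC and the shHNRNPU list (58118275 to 58118674) and of no hPSC region. They were chosen after the values were seen, as the promoters covered over their full 300 bases whose GC content was nearest to the median of their pattern. Each sequence runs from 250 bases before the start to 50 bases after it, from the RefSeq promoter table of GRCh38.p14. Capitals mark sites of the frequent cutters among the enzymes used for digestion, CCGG for MspI, GGCC for HaeIII, AGCT for AluI and GTAC for RsaI.
THAP8: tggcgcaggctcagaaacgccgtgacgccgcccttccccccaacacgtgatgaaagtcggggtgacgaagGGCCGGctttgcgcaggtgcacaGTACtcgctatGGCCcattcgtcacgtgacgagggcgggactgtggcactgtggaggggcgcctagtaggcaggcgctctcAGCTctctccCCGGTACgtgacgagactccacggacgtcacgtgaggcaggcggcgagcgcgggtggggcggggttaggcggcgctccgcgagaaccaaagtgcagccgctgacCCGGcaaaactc
DHX34: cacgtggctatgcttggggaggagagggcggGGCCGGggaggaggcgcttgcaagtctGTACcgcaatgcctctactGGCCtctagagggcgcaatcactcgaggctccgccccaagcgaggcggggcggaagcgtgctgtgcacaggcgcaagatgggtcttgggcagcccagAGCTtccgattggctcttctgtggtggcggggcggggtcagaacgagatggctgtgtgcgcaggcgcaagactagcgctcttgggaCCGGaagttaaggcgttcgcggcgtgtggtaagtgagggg
ZSCAN18: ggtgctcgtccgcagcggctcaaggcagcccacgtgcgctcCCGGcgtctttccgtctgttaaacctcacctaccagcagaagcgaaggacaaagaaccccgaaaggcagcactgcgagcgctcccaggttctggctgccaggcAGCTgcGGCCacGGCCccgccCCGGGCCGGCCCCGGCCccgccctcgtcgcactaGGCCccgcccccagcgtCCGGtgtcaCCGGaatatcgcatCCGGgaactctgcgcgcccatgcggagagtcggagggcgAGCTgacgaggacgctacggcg

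The promoter of THAP8 had a GC content of 67.0% with 34 CpGs and 8 such sites. That of DHX34 had 65.3% GC, 25 CpGs and 6 sites. That of ZSCAN18 had 70.3% GC, 36 CpGs and 15 sites, of which 7 were MspI and 6 HaeIII sites. Each of them was richer in G and C than in A and T, which follows from how they were chosen. Promoters of chromosome 19 outside ZNF genes that had no region in any list had a median GC content of 62.7%.

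Density was higher on chromosome 19 than on chromosome 18 in all 3 lists. Outside ZNF gene bodies, which filled 7.70 Mb of the 58.6 Mb span, the hPSC list held 22.5 regions per Mb (95% interval 21.2 to 23.8), the shLUC list 19.4 (18.2 to 20.6) and the shHNRNPU list 17.8 (16.6 to 19). On chromosome 18 the lists held 12, 12.4 and 11.8 regions per Mb, so that chromosome 19 was 1.88, 1.56 and 1.5 times as dense. The log2 ratio of the densities was 0.91 (0.79 to 1.04) for hPSC, 0.64 (0.51 to 0.77) for shLUC and 0.59 (0.45 to 0.72) for shHNRNPU. The hPSC list placed 2.85% of all its regions here, against 2.51% for shLUC and 2.49% for shHNRNPU, while chromosome 18 took 2.39%, 2.53% and 2.62% of the lists.

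Set against the number of genes, the order of the chromosomes was the opposite. Chromosome 19 carried 1160 protein-coding genes without a ZNF symbol, or 22.8 per Mb outside ZNF bodies, and chromosome 18 carried 268, or 3.34 per Mb. This gave 0.986 hPSC, 0.851 shLUC and 0.779 shHNRNPU regions per protein-coding gene on chromosome 19, against 3.58, 3.72 and 3.54 on chromosome 18. Neighbouring regions lay a median of 28.2, 32.2 and 36.0 kb apart in hPSC, shLUC and shHNRNPU, against 41.2, 45.0 and 46.8 kb on chromosome 18.

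**Figure D1:**
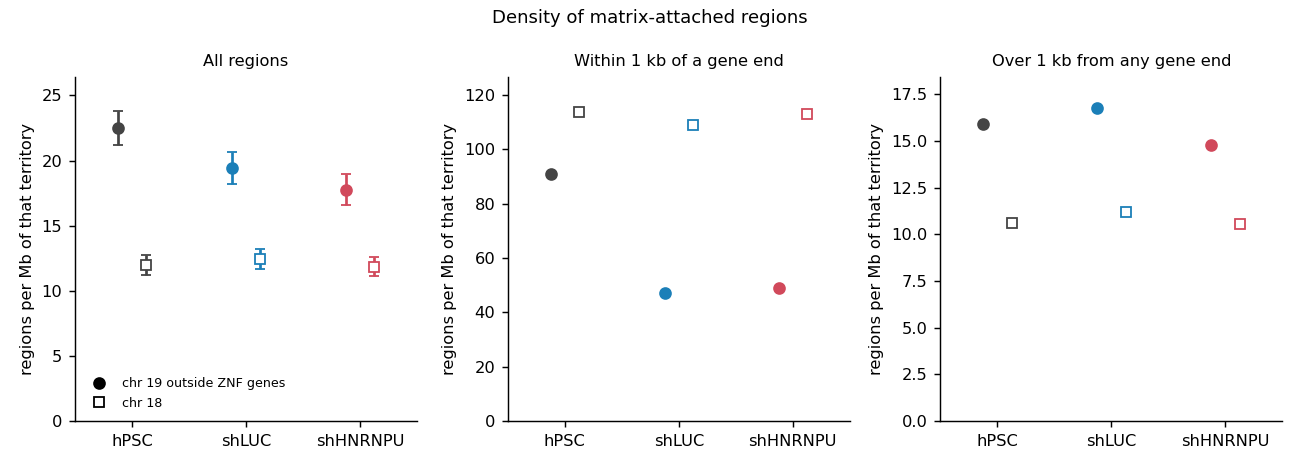
Regions per Mb in each list (hPSC grey, shLUC blue, shHNRNPU red) on chromosome 19 outside ZNF genes (filled circles) and chromosome 18 (open squares), for all regions and for the territory within and beyond 1 kb of the ends of protein-coding genes. Bars in the left panel are 95% Poisson intervals for counting error. Chromosome 19 was denser overall and away from gene ends in each list, while close to gene ends the shLUC and shHNRNPU lists held 47.1 and 49.1 regions per Mb there, against 109 and 113 on chromosome 18.

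The arms of chromosome 19 did not differ beyond counting error in any list. With the arms split in the middle of the 3.50 Mb stretch that holds no gene of the table (chr19:24179012-27681071, around the centromere), the short arm held 511 hPSC, 467 shLUC and 432 shHNRNPU regions and the long arm 633, 520 and 472. These were 22.1, 20.2 and 18.7 regions per Mb on the short arm and 22.8, 18.7 and 17.0 on the long arm. The log2 ratios of short to long were -0.05 (-0.22 to 0.12), 0.11 (-0.08 to 0.29) and 0.14 (-0.06 to 0.33). Gene density was also alike, with 22.6 protein-coding genes per Mb on the short and 22.9 on the long arm.

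Within the arms the density was uneven. In windows of 5 Mb, the hPSC list ranged from 6 to 31.5 regions per Mb, shLUC from 7.20 to 34.0 and shHNRNPU from 6.40 to 32.1. All 3 minima fell in the window from 25 to 30 Mb, in which 7 protein-coding genes begin. The maxima of the hairpin lists fell in the first 5 Mb of the short arm, with 167 shLUC and 158 shHNRNPU regions against 131 in hPSC. The hPSC maximum fell at 10 to 15 Mb, where hPSC had 135 regions and the hairpin lists 74 and 64. A megabase of the distal short arm, from 1 to 2 Mb, stood out with 55 shLUC and 49 shHNRNPU regions, which is the highest density of any window of 1 Mb in these lists, and with 31 hPSC regions. In the window from 22 to 23 Mb, between ZNF genes of the short arm, the hairpin lists had 15 and 18 regions and the hPSC list had 1.

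Windows with more genes held more regions. Over the 55 windows of 1 Mb with at least 0.5 Mb outside ZNF bodies, Spearman's rank correlation between regions and protein-coding genes per Mb was 0.74 for hPSC, 0.52 for shLUC and 0.55 for shHNRNPU. On chromosome 18 the values were 0.73, 0.67 and 0.67 over 80 windows. Window densities of shLUC and shHNRNPU followed each other closely on chromosome 19 (rank correlation 0.89), and those of hPSC and shLUC less so (0.56, against 0.79 on chromosome 18). These correlations are descriptions, since neighbouring windows of 1 chromosome are not independent of each other.

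**Figure D2:**
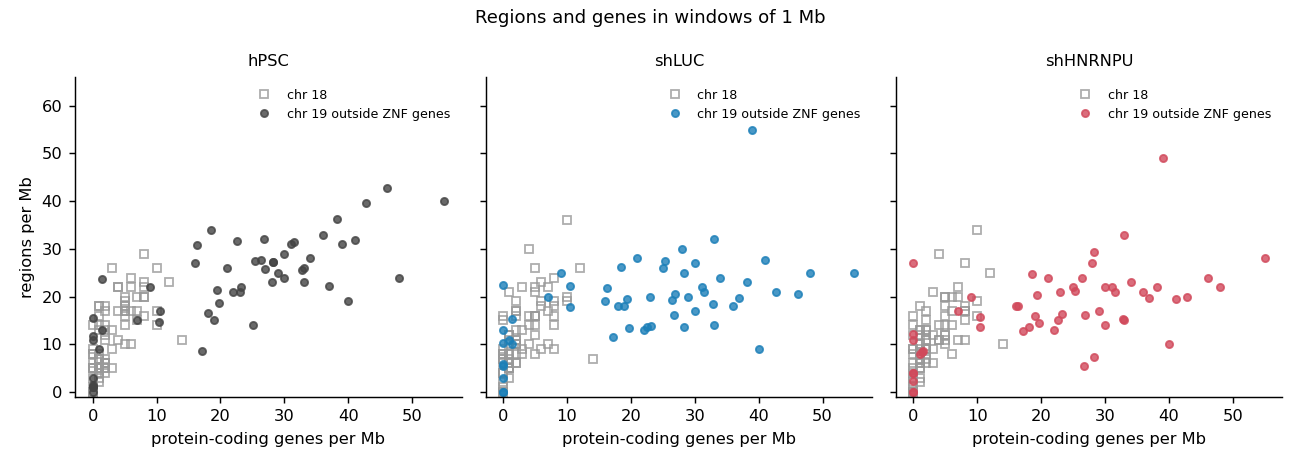
Regions per Mb against protein-coding genes per Mb in windows of 1 Mb, 1 panel per list, for 55 windows of chromosome 19 outside ZNF genes (filled circles) and 80 windows of chromosome 18 (open squares). Chromosome 18 rises steeply at low gene density, and the windows of chromosome 19 spread to the right at densities mostly between 10 and 40 regions per Mb. The isolated point at the top of the shLUC and shHNRNPU panels is the window with 55 and 49 regions.

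Ends of protein-coding genes took a large share of the regions, and most of all in hPSC. In the hPSC list 404 of 1144 regions (35.3%, 32.5 to 38.2%) had their centre within 1 kb of either end of a protein-coding gene. The shares were 21.2% (18.7 to 23.9%) in shLUC and 24.1% (21.4 to 27.0%) in shHNRNPU, and the hPSC interval did not overlap either of them. On chromosome 18 the lists were alike, with 12.2%, 11.2% and 12.2%, and over the whole lists the shares were 19.3%, 13.0% and 14.4%.

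The territory itself differed too, since 8.73% of chromosome 19 outside ZNF bodies and 1.28% of chromosome 18 lay within 1 kb of such an end. Per Mb of this territory, chromosome 19 held 91.0 hPSC, 47.1 shLUC and 49.1 shHNRNPU regions, fewer in each list than the 114, 109 and 113 of chromosome 18. Beyond 1 kb from gene ends, chromosome 19 held 15.9, 16.7 and 14.8 regions per Mb, again above the 10.6, 11.2 and 10.5 of chromosome 18. Away from gene ends the hPSC list held 740 regions and the shLUC list 778, so that the larger number of hPSC regions on this chromosome lay at the gene ends.

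Gene bodies took 64.9% of the region centres in hPSC, 72.8% in shLUC and 74.7% in shHNRNPU, where 57.7% of the territory was in genes. On chromosome 18 these shares were 64.4%, 62.3% and 62.9%, with 49.4% of the territory in genes. Only 13.5%, 14.8% and 12.4% of the chromosome 19 regions lay outside genes and over 5 kb from any end of a protein-coding gene, against 30.3%, 33.3% and 32.7% on chromosome 18. The median hPSC region was 3.21 kb from such an end, and the median shLUC and shHNRNPU regions 4.98 and 4.72 kb.

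Starts and ends of transcription were told apart for genes listed with a strand in the promoter table. Starts accounted for 25.8% of hPSC regions, 11.9% of shLUC and 13.8% of shHNRNPU regions within 1 kb. On chromosome 18 the lists were alike at starts, with 9.59%, 9.23% and 10.1%. Over the whole lists these shares were 14.7%, 9.09% and 10.3%. Transcription ends accounted for 7.26%, 6.28% and 6.53%, against 1.04%, 1.00% and 0.842% on chromosome 18. At transcription ends the 3 lists were thus alike, and the difference between hPSC and the hairpin lists lay at the starts.

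The position relative to the start also differed. Region centres were counted for each of 1269 starts within reach, so that a region near several starts counts more than once. The intervals here ignore this repetition and may be too narrow. Within 500 bp of a start, hPSC had 175 counts upstream and 140 downstream (55.6% upstream, 49.9 to 61.1%). The shLUC list had 50 upstream and 88 downstream (36.2%, 28.2 to 44.8%), and the shHNRNPU list 50 and 95 (34.5%, 26.8 to 42.8%). In hPSC the 250 bp before the start held 113 counts and the 250 bp after it 107, a difference within counting error. The shLUC list had 34 and 57 there and the shHNRNPU list 37 and 69. On chromosome 18, upstream counts made up 48.7%, 35.7% and 36.4%. Per 250 bp, the 500 bp on either side held 11.9 times as many hPSC counts as the stretches 2 to 3 kb away. The factors were 6 and 5.8 for shLUC and shHNRNPU. These factors were 15.1, 15.1 and 18 on chromosome 18, where the hairpin lists were not below hPSC.

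**Figure D3:**
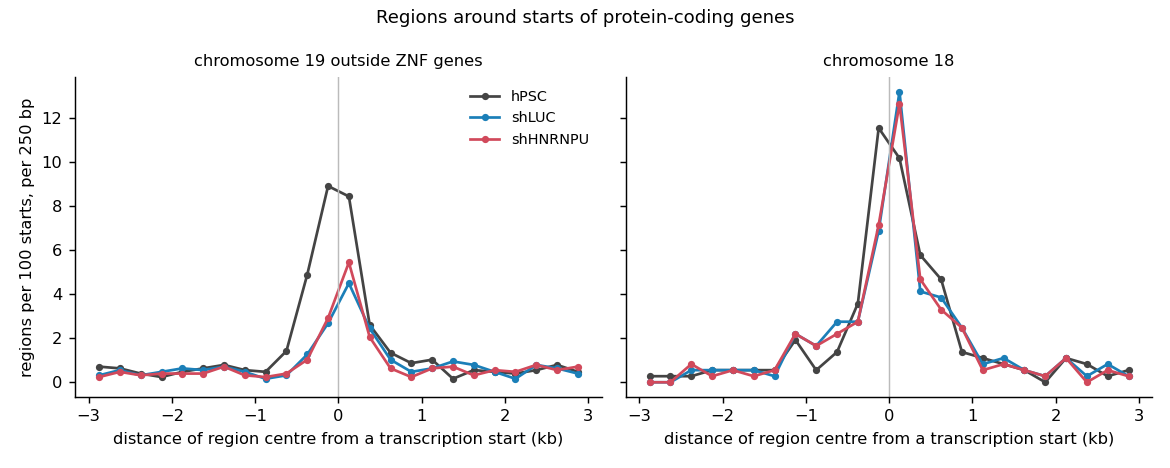
Region centres per 100 transcription starts of protein-coding genes, in bins of 250 bp by distance from the start (negative is upstream), for 1269 starts of chromosome 19 outside ZNF genes and 364 of chromosome 18. A region near several starts was counted for each of them. On chromosome 19 hPSC (grey) reached 8.90 per 100 starts just upstream and 8.43 just downstream, above the highest values of shLUC (blue, 4.49) and shHNRNPU (red, 5.44) just downstream, while on chromosome 18 the 3 lists reached similar heights.

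Promoters themselves gave the same order. Of 1277 promoter entries of 966 protein-coding genes, 284 (22.2%, 19.99 to 24.6%) overlapped an hPSC region, 108 (8.46%, 6.99 to 10.1%) a shLUC region and 120 (9.40%, 7.85 to 11.1%) a shHNRNPU region. Over all 22175 promoters of the table the shares were 29.8%, 15.6% and 16.6%. Promoters of chromosome 19 outside ZNF genes were thus below the background in each list. The 271 promoters of ZNF genes on this chromosome, set aside here, had shares of 59.4%, 7.75% and 10.3%. In hPSC they were thus above the background. On chromosome 18 they were 24.7%, 22.2% and 22.2% of 365 promoters. In the hairpin lists the promoters of chromosome 19 thus held a region less often than those of chromosome 18, with intervals that did not overlap (upper limits of 10.1% and 11.1% against lower limits of 18%). In hPSC the intervals of the 2 chromosomes overlapped.

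Shares were also lower on chromosome 19 among promoters of like GC content, in the hairpin lists and in part in hPSC. Promoters of chromosome 19 had a median GC content of 64.3% and 21 CpGs, and those of chromosome 18 62.7% and 23 CpGs. In the class of 70 to 80% GC, 27.3% of chromosome 19 promoters overlapped an hPSC region, 12.8% a shLUC region and 17.0% a shHNRNPU region, against 34.6%, 42.0% and 39.5% on chromosome 18 and 38.8%, 33.4% and 35.1% of all promoters. In the class of 60 to 70% the chromosome 19 shares were 25.8%, 8.77% and 8.05%, against 42.7%, 23.3% and 24.3% on chromosome 18. In this class the hPSC intervals (22.2 to 29.6% and 33.0 to 52.8%) did not overlap either.

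The lists also differed in how their share moved with GC content. In the hairpin lists it went up through every class, from 0 of 90 promoters under 50% GC (which allows up to 4.02%) to 35.7% and 40.5% of the 42 promoters at 80% GC or more. In hPSC it was 3.33% in the lowest class, peaked at 27.3% and stood at 9.52% (2.66 to 22.6%) in the highest, where the hairpin lists were above it. Promoters with a region had a median of 27 CpGs in hPSC, 32 in shLUC and 33 in shHNRNPU, against 17, 19 and 19 in promoters without one.

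**Figure D4:**
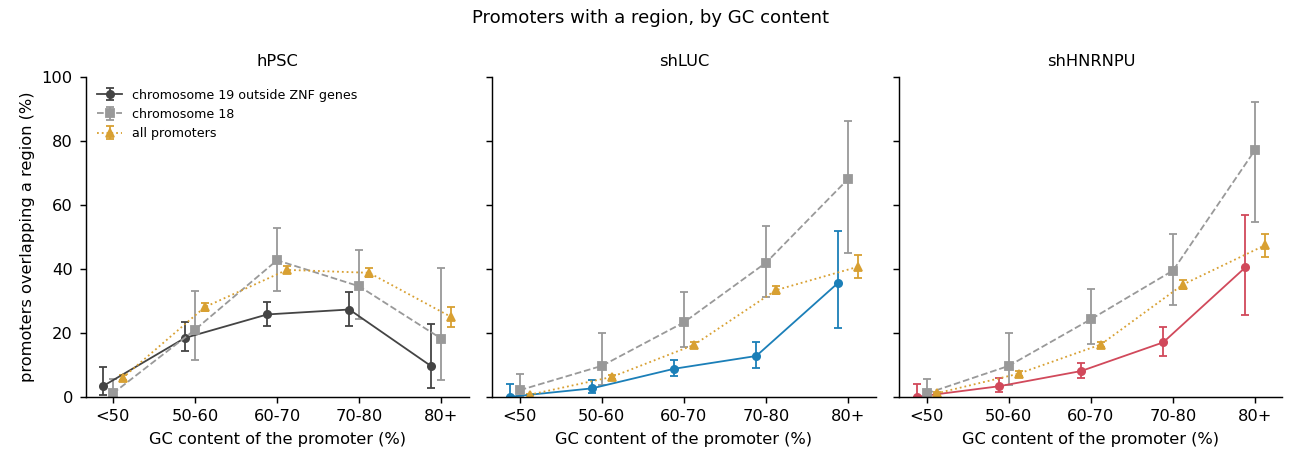
Share of promoters of 300 bases that overlapped a region, by GC content of the promoter, 1 panel per list, for chromosome 19 outside ZNF genes (circles), chromosome 18 (squares) and all promoters (triangles), with 95% Clopper-Pearson intervals for counting error. In the shLUC and shHNRNPU panels chromosome 19 runs below both references from 50 to 80% GC, and in the hPSC panel all 3 lines drop in the highest class.

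Of the enzymes used for the digestion, MspI, HaeIII and BamHI had more sites on average in promoters with a hairpin region than in those without. MspI cuts CCGG and HaeIII cuts GGCC, RsaI cuts GTAC, AluI cuts AGCT, BamHI cuts GGATCC and PvuII cuts CAGCTG (which holds an AluI site). All are palindromes, so that 1 count covers both strands. Of all 1277 promoters, 81.4% held an MspI site, 92.0% a HaeIII site, 67.9% an AluI site, 24.4% an RsaI site, 9.40% a BamHI site and 16.7% a PvuII site. Promoters with a shHNRNPU region held 4.00 MspI sites on average and those without one 2.39. The averages were 3.72 and 2.44 for shLUC and 2.94 and 2.43 for hPSC. An MspI site was held by 93.3% and 80.1% of promoters with and without a shHNRNPU region. These shares were 91.7% and 80.4% for shLUC and 93.7% and 77.8% for hPSC. HaeIII sites numbered 4.27 and 3.18 with and without a shHNRNPU region, 4.17 and 3.20 for shLUC, and 3.31 and 3.27 for hPSC. AluI, RsaI and PvuII sites were fewer in promoters with a shHNRNPU region, with averages of 0.925 and 1.24, 0.200 and 0.287, and 0.117 and 0.211. BamHI sites averaged 0.142 and 0.0977 with and without a shHNRNPU region, and 0.148 and 0.0975 for shLUC. The part of cutting frequency, GC content and mappability in where regions were called was not tested.

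Most promoters with an hPSC region had no region of another list, while those with a hairpin region mostly had one. Of the 1277 promoters, 226 (17.7%) overlapped a region of hPSC alone. A region of both hairpin lists and not of hPSC was found in 58 (4.54%), and regions of all 3 lists in 28 (2.19%). Over all promoters of the table these shares were 19.1%, 6.10% and 5.97%. The median GC content of the 3 groups on chromosome 19 was 65.7%, 70.5% and 70.2%. A further 10 (0.783%) had a region of shLUC alone and 16 (1.25%) of shHNRNPU alone, against 1.47% and 1.92% of all promoters. None was found in 909 (71.2%, against 60.7% of all promoters).

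Between the hairpin lists, regions of chromosome 19 were shared about as often as elsewhere. Of the 987 shLUC regions, 684 (69.3%, 66.3 to 72.2%) overlapped a shHNRNPU region by at least 1 bp, against 72.5% on chromosome 18. The share without a partner was 30.7%, and 29.2% over the whole list. Seen from shHNRNPU, 220 of 904 regions (24.3%) had no shLUC partner, against 23.2% of the whole list. Neither value stood away from its background by more than counting error. All 684 shared regions had identical coordinates in the lists of shLUC and shHNRNPU, and how those coordinates were set is not given in the sources used here. The lists are therefore not independent of each other.

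Fewer regions were shared with hPSC than between the hairpin lists. Of the hPSC regions, 139 (12.2%, 10.3 to 14.2%) overlapped a shLUC region and 155 (13.5%, 11.6 to 15.7%) a shHNRNPU region, so that 87.8% and 86.5% had none, against 86.0% and 84.4% of the whole list. From the other side, 86.0% of shLUC and 83.0% of shHNRNPU regions had no hPSC partner, against 85.8% and 82.7%. Only 32 of the pairs of hPSC with shLUC and 55 of those with shHNRNPU had identical coordinates. All 3 lists shared 92 hPSC regions (8.04%), and 942 (82.3%) were in the hPSC list alone.

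Near gene ends fewer hPSC regions were shared on chromosome 19 than on chromosome 18. Of hPSC regions within 1 kb of an end, 15.8% (12.4 to 19.8%) overlapped a shLUC region, against 41.0% (32 to 50.5%) on chromosome 18 and 29.6% over the whole list. From the shLUC side the shares were 29.7% (23.6 to 36.4%), 42.9% (33.5 to 52.6%) and 45.1%, and here the intervals of the chromosomes overlapped. Away from gene ends the chromosomes were alike, with 10.1% and 9.86% of hPSC regions. Of the hPSC regions in all 3 lists, 43 of 92 (46.7%, 36.3 to 57.4%) lay near gene ends, against 33.3% (30.3 to 36.4%) of those in hPSC alone. Those shared with shLUC only (44.7%, 30.2 to 59.9%) or shHNRNPU only (41.3%, 29.0 to 54.4%) lay between. Over the whole list the shares for all 3 lists and for hPSC alone were 45.6% and 14.8%, and on chromosome 18 42.7% and 7.34%. Regions in both hairpin lists and not in hPSC lay near gene ends in 118 of 593 cases (19.9%), those of shLUC alone in 29 of 256 (11.3%) and those of shHNRNPU alone in 33 of 157 (21.0%).

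The number of regions was lower with the hairpin against HNRNPU, by about as much as in the whole lists. The 904 shHNRNPU regions were a change of -8.41% from the 987 of shLUC (log2 ratio -0.13, -0.26 to 0.005). This interval treats the counts as independent, although 684 regions were identical in both lists. It therefore does not give the counting error of the difference. The difference rests on 303 shLUC regions without a shHNRNPU partner and 220 shHNRNPU regions without a shLUC partner. The change was -4.71% on chromosome 18 and -7.85% for the whole lists. Away from gene ends shLUC had 778 regions and shHNRNPU 686, while within 1 kb of gene ends the numbers were 209 and 218. The whole lists had the same pattern, with 34265 and 31043 regions away from gene ends and 5103 and 5234 near them. On chromosome 18 these numbers were 885 and 834, and 112 and 116. The hPSC list had 15.9% more regions here than shLUC, against 1.87% more in the whole list and a change of -3.81% on chromosome 18.

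Genes of chromosome 19 were mostly short, with a median of 12.7 kb against 52.1 kb on chromosome 18, and many held no region. Of the 1160 protein-coding genes, 536 (46.2%) overlapped an hPSC region, 480 (41.4%) a shLUC region and 452 (39.0%) a shHNRNPU region. Over all protein-coding genes, with a median of 24.4 kb, the shares were 58.2%, 53.0% and 52.3%. A region of each list was found in 243 genes, and 421 had none in any list, against 7043 and 5272 of all 19884 genes. Among genes under 10 kb, 30.5%, 25.2% and 21.4% held a region, against 29.7%, 24.9% and 25.3% of all such genes of the genome. Among the 30 genes of at least 100 kb, 93.3%, 96.7% and 96.7% held one. Per 100 kb, these long genes held 2.01, 2.15 and 1.95 regions, against 1.48, 1.63 and 1.54 in those of chromosome 18.

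From shLUC to shHNRNPU, 140 genes (12.1%) had fewer regions and 104 (8.97%) more, and 916 had the same number. The shares were 17.8% and 13.3% of all protein-coding genes and 23.1% and 19.4% on chromosome 18, both with longer genes. The 916 include the 421 genes without a region in any list. An equal number can hold different regions, as in STK11, with 2 in each hairpin list and 1 of them shared. The largest differences were 3 regions either way, and single regions decide them. Regions were counted for every gene they overlapped.

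KDM4B, a histone demethylase that acts on lysine 9 of histone H3, had most regions, with 6 in hPSC, 10 in shLUC and 7 in shHNRNPU over 184 kb (chr19:4969113-5153598). Of its 10 shLUC regions 6 were also in shHNRNPU, while of its 6 hPSC regions 1 overlapped a shLUC and 2 a shHNRNPU region. The one common to the 3 lists lay across an end of the gene, from 4968873 in hPSC and from 4968882 in both hairpin lists. The other, at 5006001, had the same coordinates in hPSC and shHNRNPU. PTPRS, a receptor tyrosine phosphatase of the nervous system, followed with 3, 7 and 6 regions. CACNA1A, which codes for the pore of P/Q-type calcium channels, had 6, 5 and 4, and 4 of its 5 shLUC regions were in shHNRNPU but none of its hPSC regions overlapped either. GATAD2A, a subunit of the NuRD complex, had 4, 5 and 5 regions, and SIPA1L3, a GTPase-activating protein, had 4, 5 and 5. In these 2 genes all 5 shLUC regions were in shHNRNPU, and no hPSC region overlapped them. POU2F2, a POU transcription factor of B cells, had 6, 3 and 4 regions. CHST8, a carbohydrate sulfotransferase, had 3, 5 and 4, and NFIX, a nuclear factor I transcription factor, had 2, 5 and 5. In POU2F2 all 3 shLUC regions, and in CHST8 and NFIX 4 of 5, were also in shHNRNPU. Of the hPSC regions in these 8 genes, 2 in KDM4B and 1 in PTPRS overlapped a hairpin region, and none did in the other 6 genes.

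Fewer regions in shHNRNPU than in shLUC were found most in KDM4B, SPTBN4, BICRA and TDRD12. SPTBN4, a beta spectrin of axons, had 4 regions in hPSC, 4 in shLUC and 2 in shHNRNPU. BICRA, a subunit of a SWI/SNF remodelling complex, had 3, 4 and 2. TDRD12, a Tudor-domain protein of the piRNA pathway, had 3, 3 and 1. More regions were found in NFIC, RANBP3, AP2A1 and GNG7. NFIC, another nuclear factor I gene, had 2, 1 and 4, RANBP3, a Ran-binding protein of nuclear export, had 2, 0 and 3, and AP2A1, a subunit of the clathrin adaptor AP-2, had 0, 0 and 3. GNG7, a G protein gamma subunit, had 7, 1 and 3, and all 3 shHNRNPU regions overlapped an hPSC region, the only such case among these 4 genes.

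**Figure D5:**
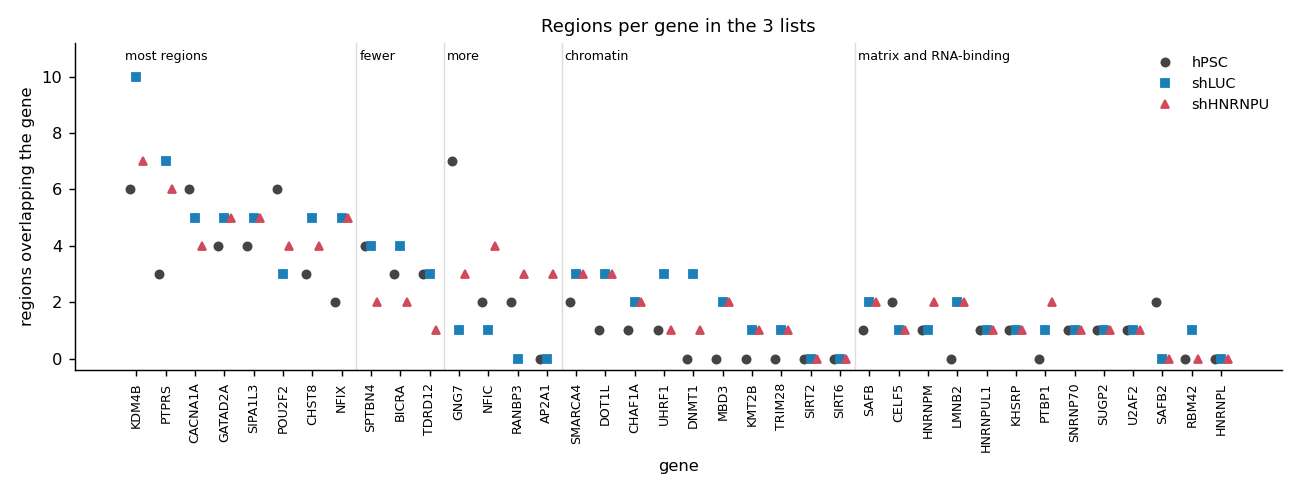
Number of regions that overlapped each named gene in the hPSC (grey circles), shLUC (blue squares) and shHNRNPU (red triangles) lists, grouped as genes with most regions, genes with fewer or more regions in shHNRNPU than in shLUC, and members of the fixed lists of chromatin genes and of matrix and RNA-binding genes. In the fixed lists blue and red stand at the same height except for KDM4B, DNMT1, UHRF1, HNRNPM, PTBP1 and RBM42, and grey lies below blue in each chromatin gene drawn that has a region (KDM4B is drawn among the genes with most regions).

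Chromatin regulators held more regions in the hairpin lists than in hPSC. The 12 genes of this list had 12 hPSC, 30 shLUC and 23 shHNRNPU regions, or 1.72, 4.31 and 3.30 per 100 kb, where all genes considered had 3.02, 2.82 and 2.64. Their median length was 53.6 kb, and chromosome 19 genes of 30 to 100 kb had 2.38, 2.39 and 2.21 per 100 kb. KDM4B gave 6, 10 and 7 of the regions in this list. DNMT1, the maintenance DNA methyltransferase, had 0, 3 and 1 regions. The shLUC region at 10194849, across its transcription start at 10194953, was not in shHNRNPU. UHRF1, which brings DNMT1 to newly replicated DNA, had 1, 3 and 1. DOT1L, the histone H3 lysine 79 methyltransferase, had 1, 3 and 3, and MBD3, a NuRD subunit, 0, 2 and 2. SMARCA4, the ATPase of SWI/SNF complexes, had 2, 3 and 3, with a region at its start (10960910) that all 3 lists held with identical coordinates. SIRT2 and SIRT6, both deacetylases, had none in any list. From shLUC to shHNRNPU, 3 of the 12 genes had fewer regions and 0 had more, against 12.1% and 8.97% of all 1160 genes, and single regions decide such counts.

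Genes of the nuclear matrix and of RNA binding had 11 hPSC, 14 shLUC and 16 shHNRNPU regions over 14 genes, or 2.46, 3.13 and 3.58 per 100 kb (3.02, 2.82 and 2.64 in all genes). A region of each list was found in 8 of them, and in 243 of all 1160 genes, but these 14 genes had a median length of 32.3 kb against 12.7 kb. Longer genes more often held a region. Of chromosome 19 genes of 30 to 100 kb, 72.5%, 67.1% and 63.8% held a region of hPSC, shLUC and shHNRNPU. Such genes had 2.38, 2.39 and 2.21 regions per 100 kb. SAFB and SAFB2 code for scaffold attachment factors B and are neighbours. SAFB had 1, 2 and 2 regions, and SAFB2 had 2, 0 and 0. LMNB2, which codes for lamin B2 of the nuclear lamina, had 0 in hPSC and 2 in each hairpin list, both at identical coordinates. HNRNPUL1, a relative of HNRNPU, had 1 region in each list, HNRNPM, a splicing regulator, 1, 1 and 2, and HNRNPL none. In this list 1 gene had fewer and 3 had more regions in shHNRNPU than in shLUC, each by 1 region, where 140 and 104 of all 1160 genes did.

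Growth and signalling genes were alike in total, with 15, 16 and 16 regions over 11 genes. MAP2K2 (the kinase MEK2) and STK11 (the kinase LKB1) had 0 in hPSC and 2 in each hairpin list, and TYK2, a Janus kinase, had 3, 1 and 1. AXL, a receptor tyrosine kinase, and GSK3A, a kinase of glycogen synthesis, had none. The 8 ion channel and other large genes had 20, 27 and 27 regions. Among them RYR1, the calcium release channel of skeletal muscle, had 3, 4 and 3, and MUC16, a large membrane mucin, had 0, 3 and 3.

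Of several tandem gene families of chromosome 19 most members had no region, where 421 of all 1160 genes had none. Short genes held a region less often than long ones, and median gene length was 16.0 kb in CEACAM and PSG, 8.53 kb in the olfactory receptors, 10.9 kb in the leukocyte receptor complex and 40.8 kb in NLRP, against 12.7 kb in all 1160 genes. Of 22 CEACAM and PSG genes, which code for cell adhesion and pregnancy-specific glycoproteins, 19 had no region in any list, and the density was 0.525 hPSC, 0.263 shLUC and 0.263 shHNRNPU regions per 100 kb. Of 20 olfactory receptor genes, 17 had none, and of 19 genes of the leukocyte receptor complex (LILR, KIR and LAIR), 15. Of 9 NLRP genes, which act in innate immunity and early development, 7 had none, as had 8 of 11 SIGLEC genes. Of 12 CYP2 and CYP4F genes, drug and fatty acid hydroxylases, 5 had none, a share near that of all genes, with 1.34, 2.23 and 1.78 regions per 100 kb. Of 5 FUT fucosyltransferase genes 4 had none, and FUT1 had 1 region in each list (2.19 per 100 kb over the 5 genes). The kallikrein proteases (KLK) had 8 hPSC, 4 shLUC and 3 shHNRNPU regions over 15 short genes, and 6 without a region. Their 7.43, 3.71 and 2.78 regions per 100 kb stand beside 6.30, 5.23 and 4.55 in all genes of chromosome 19 under 10 kb. Such families hold near-identical copies, to which reads may not be placed uniquely, so that their counts are uncertain.

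The longest genes without a region were NWD1 (98.1 kb), ADGRE3 (74.7 kb), NLRP11 (51.2 kb), GPATCH1 (49.4 kb), OR7E24 (46.1 kb) and NLRP4 (45.3 kb). ADGRE3 is an adhesion G protein-coupled receptor of leukocytes, and OR7E24 an olfactory receptor. The densest genes of at least 20 kb with a region of each list were RASIP1, a gene of blood vessel formation, with 3, 2 and 2 regions over 20.03 kb, CHERP, a splicing-related protein, with 1, 3 and 3, COQ8B, of coenzyme Q synthesis, with 2 in each list, WIZ, a zinc-finger partner of histone methyltransferases, with 1, 3 and 3, PODNL1 with 2, 2 and 1, and ZSCAN1 with 1, 2 and 2. In COQ8B both regions of each list overlapped those of the others.

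Regions of all 3 lists that overlapped each other within 1 kb of an end were found at 42 of the 1160 genes. The share over all protein-coding genes was not computed, so this count has no background. A site near the ends of neighbouring genes was counted for each of them, as at COQ8B and ITPKC. ANKLE1, an endonuclease, had 2 such sites, the only gene with more than 1. At 17282661 to 17283060 its region had identical coordinates in the 3 lists, 959 bp from the nearer gene end. BAX, a mediator of apoptosis, had 324 bp common to the 3 lists with centres 122 bp (hPSC) and 46 bp (hairpin lists) from an end. ACP7, a phosphatase, had 362 common bp. ARHGEF1, a guanine nucleotide exchange factor, had 120, and CACNG8, an auxiliary subunit of AMPA receptors, 268. At the common sites of these 5 genes the shLUC and shHNRNPU regions had identical coordinates.

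Chromosome 19 also carries 2 clusters of miRNAs that are known to be expressed in human pluripotent stem cells or the placenta. The miRNAs of the MIR371 to MIR373 cluster act in pluripotent cells. The mature forms are shown with the seed (bases 2 to 8) in capitals, since the seed chooses the targets. The seeds of miR-372-3p and miR-373-3p are the same, and that of miR-371a-3p differs.
hsa-miR-371a-3p: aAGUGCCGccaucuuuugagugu
hsa-miR-372-3p: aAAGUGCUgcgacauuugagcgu
hsa-miR-373-3p: gAAGUGCUucgauuuuggggugu

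The MIR371 to MIR373 cluster spans 1.10 kb (chr19:53787675-53788773, plus strand). Both hairpin lists had a region inside it at 53788040 to 53788439, between the mature sequences of miR-372-3p and miR-373-3p. The nearest hPSC region lay 4.13 kb away, at 53792905 to 53793304. The cluster of 42 miRNA genes from MIR512 to MIR527 spans 95.8 kb and had 1 region in each list, at 53672705 in hPSC and at 53755403 in both hairpin lists.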

How the data were processed

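MAR-seq regions of H1 cells were taken from 3 lists that the authors deposited, 1 per group of 2 samples. Each list held positions only (chromosome, start and end), with a score of 0 in every row, so no signal was used. The submitters' processing notes name cutadapt, Bowtie2, SAMtools, MACS2, deepTools and the build hg38, without versions. The threshold, the use of input and the pooling of samples are not given in the sources used here, and a shared threshold cannot be assumed. Read depth is unknown, and without replicates in the lists no test was possible.

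Genes and promoters came from RefSeq tables of GRCh38.p14. The 58 genes that the gene table places on alternate loci of chromosome 19 were left out, and keeping them was an alternative chosen after seeing the data. Gene ends are either boundary of a protein-coding gene. Regions belonged to a gene by at least 1 bp of overlap and were shared by the same rule. Named genes were those with most regions, largest differences between the hairpin lists, highest density (20 kb or longer), no region, or a region common to all lists near an end, plus fixed lists, and a few of these are not reported here by name. The members and lists were chosen with earlier results of these data known. Calculations used Python 3.11.15, numpy 2.4.6, pandas 2.3.3 and scipy 1.17.1, and were tested on simulated data.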

Additional observations from a re-analysis of the deposited data

How the results depend on the processing

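Of 60 values recomputed over 24 results, 33 stayed within the counting interval or 1.5 times and 27 did not. Direction was judged only for the log2 ratios of density, of regions per gene and of shHNRNPU to shLUC, and none of these turned. Shares and counts have no direction to lose, and the arm ratios, whose intervals include 0, were not judged for it. Below, values are in the order hPSC, shLUC and shHNRNPU. With all genes in place of protein-coding genes, the log2 ratio of regions per gene against chromosome 18 was -0.83, -1.10 and -1.15. The share in a gene body was 75.4%, 77.1% and 79.6% with any overlap, and 56.2%, 65.9% and 66.7% for protein-coding genes. The share near a gene end was 29.0%, 15.4% and 17.9% within 500 bp, 55.4%, 50.05% and 51.0% within 5 kb, and 42.7%, 27.3% and 30.3% for ends of all genes. Counted from shHNRNPU, 75.7% of regions were shared with shLUC and 17.0% with hPSC. For hPSC with shLUC, sharing was 8.92% with 50% overlap and 16.3% within 1 kb, and for hPSC with shHNRNPU 11.1% and 17.7%. Promoters with a region within 1 kb made up 30.9%, 14.6% and 14.6%. The cause was not tested beyond the wider or narrower definitions themselves.

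No paired analysis was possible because the lists, 1 per group, carry no replicate columns, and no sample was left out for the same reason. The lists give no height or p-value for a region, and neither depth nor threshold is known, so regions just short of a threshold are not seen.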
